A study of Mus musculus with 4 samples.

Results

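The transcripts described here are those of 10 selenoprotein genes: Selenop, Selenof, Selenos, Selenok, Selenom, Selenow, Selenot, Gpx1, Gpx4 and Txnrd1. They were taken as every probe set whose symbol in the platform annotation is one of these names, which gave 21 of the 45101 probe sets on the Affymetrix Mouse Genome 430 2.0 array. The family was chosen by the signal of Selenop, which was at least 2-fold lower in the AID-silenced than in the control clone of both pairs. Its values in that comparison, and those of the other genes of the family, are therefore given as a description. Counts past a limma threshold in it are printed beside the share over all probe sets and support nothing.

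The cells were J558, a malignant plasma cell line of BALB/c mice, and 4 clones of it had 1 array each. In 2 AID-silenced clones, a sequence targeting activation-induced cytidine deaminase (AID), the enzyme that starts antibody gene diversification, had been introduced in a silencing vector. The 2 control clones carried the empty targeting vector, and all 4 had received a neomycin resistance vector and been selected with G418. The labels arrange them as pairs 1 and 2, each with an AID-silenced and a control clone, without saying what the clones of a pair share. Every array is thus a different clone, and a difference between groups cannot be told apart from a difference between single clones of each group.

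Selenoproteins contain selenocysteine, an amino acid inserted at a UGA codon that would otherwise end translation. Its insertion needs a dedicated transfer RNA, an elongation factor and a stem-loop in the 3′ untranslated region of the mRNA, which the SECIS-binding protein recognises. Most selenoproteins are redox enzymes, and several sit in the endoplasmic reticulum (ER), the compartment in which a plasma cell folds antibody. Selenop differs from the rest in being secreted with many selenocysteines, so that it carries selenium between tissues, and liver is its main source.

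The start regions of the 10 genes differed in their content of CG dinucleotides, the sites at which mammalian DNA is methylated. Of the 17492 protein-coding genes with a window of 250 bases before to 50 bases after the outermost start in RefSeq (GRCm38.p6), the median window held 13 CG dinucleotides and the quartiles were 4 and 24. The windows of Selenop, of Selenom and of Selenof, the family member with the most, are shown because they span this range, with each CG in capitals. The Selenop window lies at chr15:3270517-3270816 on the plus strand, that of Selenom at chr11:3514434-3514733 on the plus strand and that of Selenof at chr3:144570177-144570476 on the plus strand.
Selenop: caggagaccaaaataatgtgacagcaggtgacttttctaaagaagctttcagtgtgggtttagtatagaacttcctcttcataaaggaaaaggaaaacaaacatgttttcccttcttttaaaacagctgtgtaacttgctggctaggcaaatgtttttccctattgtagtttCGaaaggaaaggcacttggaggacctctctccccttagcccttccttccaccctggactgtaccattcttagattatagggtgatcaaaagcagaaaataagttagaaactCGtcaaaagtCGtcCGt
Selenom: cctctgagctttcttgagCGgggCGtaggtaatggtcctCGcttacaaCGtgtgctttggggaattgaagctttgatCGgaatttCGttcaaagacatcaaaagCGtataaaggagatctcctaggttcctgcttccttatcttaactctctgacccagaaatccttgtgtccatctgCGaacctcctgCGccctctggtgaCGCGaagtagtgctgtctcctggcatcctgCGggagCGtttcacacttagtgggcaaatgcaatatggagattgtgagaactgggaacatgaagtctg
Selenof: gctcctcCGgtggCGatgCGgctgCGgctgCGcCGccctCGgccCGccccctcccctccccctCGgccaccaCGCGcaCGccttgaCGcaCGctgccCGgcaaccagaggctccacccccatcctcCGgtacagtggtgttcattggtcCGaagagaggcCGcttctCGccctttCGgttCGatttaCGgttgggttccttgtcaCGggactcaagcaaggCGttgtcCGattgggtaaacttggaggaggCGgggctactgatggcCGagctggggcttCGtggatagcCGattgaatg

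The Selenop window held 4 CG dinucleotides and was 40.7% G or C, and 29.1% of all windows held as few or fewer. RefSeq lists 3 start windows for Selenop, with 4, 4 and 8 CG dinucleotides. The Selenom window held 13 and was 49.3% G or C, and the Selenof window held 29 and was 65.7% G or C. Among the other genes with a single start window, Selenos held 23, Selenow 17, Selenok 15, Selenot 14 and Gpx1 11. The outermost windows of Gpx4 and Txnrd1 held 3 each, but other start windows of these genes held up to 31 for Gpx4 and 27 for Txnrd1. By the listed window with the most CG dinucleotides, Selenop thus had the fewest of the family at 8, with Gpx1 next at 11. By the outermost window, Gpx4 and Txnrd1 had fewer than Selenop. Methylation was not measured in these clones.

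The outermost windows were also searched on both strands for 5 short motifs. The forkhead motif GTAAACA was in none of the 10 windows and in 2.93% of all windows, and the ER stress response element, which begins with CCAAT, was in none of the 10 and in 0.16% of all. CCAAT by itself was in the windows of Gpx4, Selenof, Selenok and Selenos and in 39.2% of all windows. TATAAA was in those of Selenom and Selenot and in 13.3% of all windows. The core of the antioxidant response element, TGACNNNGC, was in that of Selenok and in 13.1% of all. A match to such letters is a description of the window and does not show a site in use.

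All values are MAS5 signals, which are given for each probe set on a linear scale, and the 4 arrays share a trimmed mean of 500. Signals of 15 probe sets for bacterial genes reached at most 27.3 and 27.2 on the arrays of the AID-silenced clones of pairs 1 and 2, and 41.9 and 27.5 on those of the control clones. Signals at or under these values are called the background range below. Differences are of log2(signal + 16), which understates the differences of dim probe sets, and 22519 probe sets in the upper 0.5 by mean value on this scale were tested. Of the family's 21 probe sets 19 were tested, with at least 1 for each gene. The remaining 2, the dimmer one of Selenof and the dimmest of Selenot, had a lower mean.

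All 9 plasma cell markers, among them Sdc1, Xbp1, Irf4 and Jchain, were above the background range on every array. Their summed signals were 148675 and 175195 in the AID-silenced clones and 135657 and 171617 in the control clones. The 10 markers of macrophages, which also make Selenop, summed to 1423 and 1160.1 in the AID-silenced clones and 1217 and 1354 in the control clones. Of these, Csf1r and Cd68 were above the background range on every array, while C1qa, C1qc and Cd163 were within it on every array. Mrc1 had 180 and 124 in the AID-silenced clones and 27.6 and 229 in the control clones. The 5 measured hepatocyte markers summed to 118 and 142 in the AID-silenced clones and 125 and 73.4 in the control clones, and none was bright enough to be tested. The 5 measured T cell markers summed to 80.0 and 145 in the AID-silenced clones against 172 and 203 in the control clones, and the 6 fibroblast markers to 241 and 179 against 191 and 195. The macrophage, hepatocyte and fibroblast sums thus overlapped between the groups, and the T cell sums were lower in both AID-silenced clones. Of the T cell markers only Cd8a was above the background range on every array. Cd3d and Cd4 were within it on every array, and Cd3e and Cd3g on 2 arrays each. Of the fibroblast markers only Col1a2 was above it on every array, and of the hepatocyte markers none was. Nothing is therefore read from the T cell, hepatocyte or fibroblast sums. The part of other cell types in the results below was not tested.

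The first comparison set the AID-silenced against the control clones for each gene of the family. Selenop was the gene that stood apart, with a signal in both control clones and a signal in the background range in both AID-silenced clones. Each probe set of the other 9 genes differed by less than 2-fold within each pair on the log2(signal + 16) scale. Among these, Selenof, Selenom, Selenow and Gpx1 were lower in the AID-silenced clone of both pairs at every probe set, and Selenok was higher in both pairs at each of its own. At their brightest probe sets Selenos was lower in both pairs, while Gpx4, Txnrd1 and Selenot went opposite ways in the 2 pairs.

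**Figure D1:**
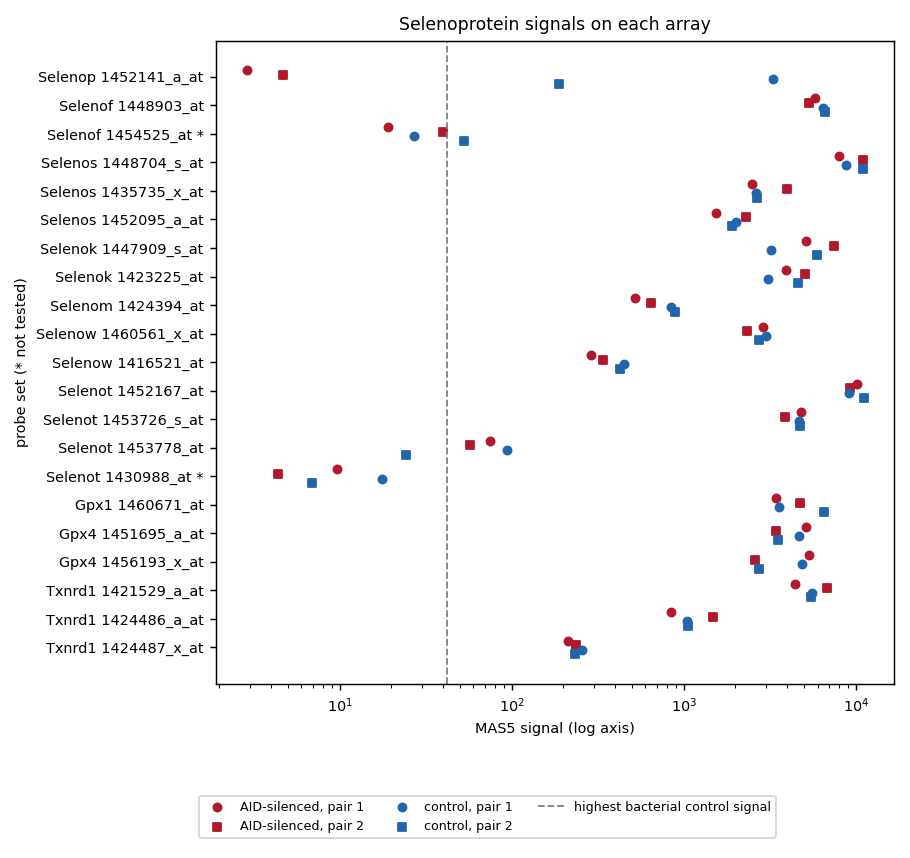
MAS5 signal (log axis) of the 21 selenoprotein probe sets on each of the 4 arrays, with red for AID-silenced clones, blue for control clones, circles for pair 1 and squares for pair 2. The dashed line marks 41.9, the highest bacterial control signal on any array. Selenop lies left of it in both AID-silenced clones and right of it in both control clones, while every other gene has at least 1 probe set right of it on all 4 arrays.

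Selenop gave a signal of 2.9 in the AID-silenced clone of pair 1 and 4.7 in that of pair 2, against 3324 in the control clone of pair 1 and 188 in that of pair 2. Values below keep this order, with pair 1 before pair 2 in each group. The AID-silenced signals were both in the background range, and the 2 control clones were themselves 17.7-fold apart. Because the AID-silenced signals cannot be told from background, the fold is a lower bound, set by the highest bacterial signal on each AID-silenced array. Selenop was at least 122-fold lower in the AID-silenced clone than in the control clone of pair 1 and at least 6.90-fold lower in pair 2, or at least 29.0-fold lower between the group means. On the log2(signal + 16) scale the differences were −7.47 in pair 1 and −3.30 in pair 2, with a mean of −5.38 ± 1.25 (SE from limma, n = 2 per group). This SE is drawn toward the spread of other probe sets, and the standard deviation of the 2 pair differences was 2.95. The array has this 1 probe set for the gene, 1452141_a_at, so no second set of probes bears on its value. Selenop entered the tested set through its control signals, since its mean on this scale was 4.31 in the AID-silenced clones and 9.69 in the control clones, against an entry value of 6.03. In bulk RNA, fewer cells with the transcript and less of it per cell cannot be told apart. Without the control clone of pair 1 the difference was −3.37, and without that of pair 2 it was −7.40.

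The 5 tested genes with patterns most like that of Selenop were Best1, Fundc1, Tex19.2, Camk2d and Ccdc30. Likeness was the distance over the 4 arrays between log2 values centred on each gene's mean. The distances ran from 2.50 for Best1 to 3.06 for Ccdc30. Best1 had signals of 7.5 and 7.2 in the AID-silenced clones and 1404 and 13.7 in the control clones, so its high signal was in the control clone of pair 1 alone. Tex19.2 had 62.2 and 51.1 in the AID-silenced clones and 1551 and 112 in the control clones. Fundc1, with 18.6 and 42.7 against 1059.8 and 775, was high in both control clones. The list was picked for its likeness to Selenop, so its agreement with Selenop is no result.

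Among the selenoproteins of the ER, Selenof, a partner of the glycoprotein folding sensor Uggt1, had signals of 5774 and 5333 in the AID-silenced clones and 6436 and 6605 in the control clones at its bright probe set. Both AID-silenced clones lay below both control clones, by log2 differences of −0.16 in pair 1 and −0.31 in pair 2. Its second, untested probe set had 19.0 and 39.7 in the AID-silenced clones and 27.2 and 53.2 in the control clones.

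Selenom, a thioredoxin-like protein of the ER lumen, had signals of 518 and 648 in the AID-silenced clones and 844 and 888 in the control clones. The groups did not overlap, and the log2 differences were −0.69 and −0.45, with a mean of −0.57 ± 0.26 (SE from limma, n = 2 per group). After Selenop this was the largest mean difference in the family by size, and the nearest to the 2-fold threshold of the choice from outside it.

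Selenok, an ER membrane protein that works with the palmitoyltransferase Zdhhc6, was higher in the AID-silenced clone of each pair at both of its probe sets. The brighter one had 5160.5 and 7457 in the AID-silenced clones and 3202 and 5926 in the control clones, which gave log2 differences of 0.69 and 0.33. The other had 3947 and 5047 in the AID-silenced clones and 3080.2 and 4630.2 in the control clones, with differences of 0.36 and 0.12. At both probe sets the groups overlapped, because the control clone of pair 2 was above the AID-silenced clone of pair 1.

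Selenos, an ER membrane protein that recruits the ATPase Vcp to export misfolded proteins, gave a mixed picture over 3 probe sets. The brightest had 8001 and 10999 in the AID-silenced clones and 8752 and 11103 in the control clones, with differences of −0.13 and −0.01. The other probe sets differed by −0.08 and −0.39 within pair 1, and by 0.57 and 0.28 within pair 2. The groups overlapped at each of the 3.

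Selenot, a further thioredoxin-like protein of the ER, had signals of 10209 and 9299 in the AID-silenced clones and 9158 and 11116 in the control clones at its brightest probe set. Its second one had 4796 and 3872 in the AID-silenced clones and 4673 and 4729 in the control clones. Both gave a positive difference in pair 1, of 0.16 and 0.04, and a negative one in pair 2, of −0.26 and −0.29. A much dimmer probe set had 75.2 and 57.5 in the AID-silenced clones and 93.8 and 24.3 in the control clones, and went the opposite way in each pair. Its signals in pair 2 were farther apart than its difference of 0.87 on the log2(signal + 16) scale shows, and the control clone of pair 2 was in the background range. The dimmest was in the background range on all 4 arrays.

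Selenow, a small cytosolic thioredoxin-like protein, had a lower AID-silenced signal within each pair at both probe sets. At the dimmer one the signals were 288 and 342 in the AID-silenced clones and 450.3 and 429 in the control clones, without overlap, for differences of −0.62 and −0.31. At the brighter one they were 2904 and 2339.7 in the AID-silenced clones and 2992 and 2741 in the control clones, and the groups overlapped. The brighter one carries the suffix x, which on this platform marks probe sets with probes that can bind other transcripts.

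Of the redox enzymes, Gpx1, the cytosolic glutathione peroxidase that removes hydrogen peroxide, had signals of 3463 and 4765 in the AID-silenced clones and 3594 and 6508 in the control clones. Its log2 differences were −0.05 in pair 1 and −0.45 in pair 2, and the groups overlapped. Gpx4, the peroxidase that removes lipid hydroperoxides and so blocks ferroptosis, had 5121 and 3431 in the AID-silenced clones and 4672 and 3535 in the control clones. Its second probe set had 5321 and 2591 in the AID-silenced clones and 4887 and 2746 in the control clones. The differences of both lay between −0.08 and 0.13, and the pairs were farther apart than the groups.

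Txnrd1, the cytosolic thioredoxin reductase, had signals of 4414 and 6842 in the AID-silenced clones and 5563 and 5524 in the control clones at its brightest probe set. The AID-silenced clones were thus the lowest and the highest of the 4. They were again the lowest and the highest at the second probe set, with 844 and 1479 in the AID-silenced clones and 1045 and 1061 in the control clones. The dimmest had 213 and 235 in the AID-silenced clones and 255 and 233 in the control clones.

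**Figure D2:**
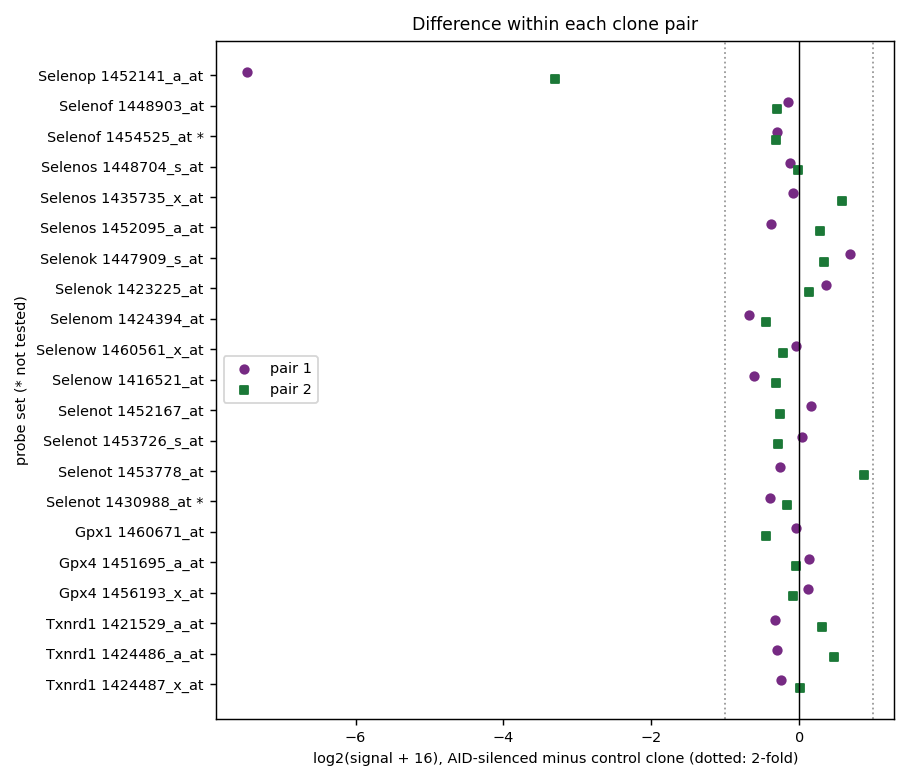
Difference of log2(signal + 16), AID-silenced minus control clone, within pair 1 (circles) and pair 2 (squares) for the 21 selenoprotein probe sets, with dotted lines at a 2-fold difference. Selenop lies at −7.47 and −3.30, and every other probe set lies within the dotted lines in both pairs.

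In counts, limma called none of the 19 tested probe sets of the family at a Benjamini-Hochberg adjusted p of 0.05, beside 0.00888% of all tested probe sets, and none of the 10 genes, beside 0.0191% of all tested genes. With the pair as a replicate block it called none of the 19 either, beside 0.0355% of all. At an unadjusted p under 0.05 there was 1 of 19, beside 3.49% of all, and it was Selenop, which was chosen on this same comparison. Both pairs differed by 2-fold or more, the same way, for that 1 of 19, beside 0.870% of all probe sets. It was lower in the AID-silenced clones, beside 0.382% of all, and 0 of 19 were higher, beside 0.488%. Both AID-silenced signals were below both control signals at 4 of 19, for Selenop, Selenof, Selenom and Selenow, beside 14.0% of all. Both were above at 0 of 19, beside 15.5% of all. With each gene at its brightest probe set, 6 of the 10 genes were lower in both pairs (5 under quantile normalisation), beside 27.5% of the 10475 tested genes, and 1 was higher in both, beside 26.7%. These counts come from the comparison on which the family was chosen, and nothing is read from them. An exact permutation test on 2 against 2 arrays cannot give a two-sided p below 0.333.

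The second comparison set the clones of pair 2 against those of pair 1, a contrast balanced over the AID-silenced and control groups and not used in choosing the genes. Gpx4 was lower in both clones of pair 2, while Gpx1, Selenok and the brightest Selenos probe set were higher in both. No probe set of the family passed limma at an adjusted p of 0.05 here, and neither did any of the 22519 (0%). At an unadjusted p under 0.05 there were 6 of 19 for the family, beside 13.5% of all tested probe sets.

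Gpx4 signals at its second probe set were 2591 and 2746 in the AID-silenced and control clones of pair 2, against 5321 and 4887 in those of pair 1. The difference was −0.93 ± 0.16 on the log2 scale (SE, n = 2 per pair), with a limma adjusted p of 0.245. At the first it was −0.49 ± 0.15 (SE, n = 2 per pair, limma adjusted p = 0.294), from 3431 and 3535 in pair 2 and 5121 and 4672 in pair 1. The 2 probe sets gave the same direction, and the one with the larger difference has the suffix x.

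Gpx1 had 4765 and 6508 in pair 2 and 3463 and 3594 in pair 1, a difference of 0.66 ± 0.19 (SE, n = 2 per pair, limma adjusted p = 0.281). Both Selenok probe sets were higher in pair 2, by 0.71 ± 0.26 (SE, n = 2 per pair, limma adjusted p = 0.335) and 0.47 ± 0.18 (SE, n = 2 per pair, limma adjusted p = 0.347). The brightest Selenos probe set differed by 0.40 ± 0.13 (SE, n = 2 per pair, limma adjusted p = 0.298), and the other Selenos probe sets by 0.33 and 0.25. In these genes the clone pair separated the signals without overlap, apart from the dimmest Selenos probe set, but none of the differences passed the threshold. The 2 pairs did not overlap, with pair 2 higher, at 6 of 19 probe sets of the family, beside 20.7% of all, and with pair 2 lower at 4 of 19, beside 26.2%.

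Selenop differed by −1.95 ± 2.85 between the pairs (SE, n = 2 per pair, limma adjusted p = 0.798), since its AID-silenced clones were in the background range in both. Selenof differed by −0.04 ± 0.17 (SE, n = 2 per pair, limma adjusted p = 0.941), and its signals in pair 2 lay on both sides of those in pair 1.

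**Figure D3:**
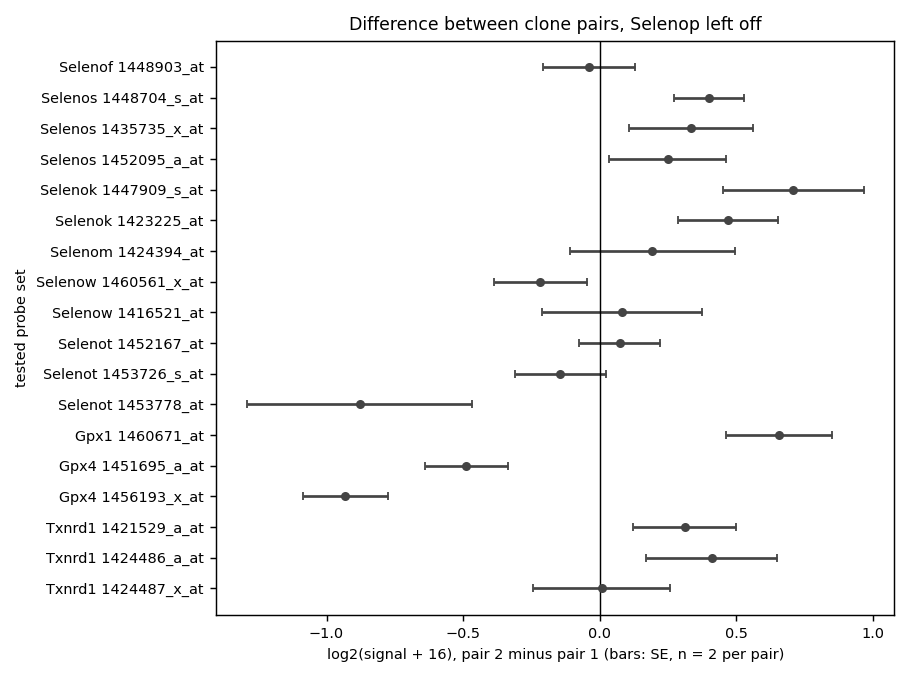
Difference of log2(signal + 16), pair 2 minus pair 1, for 18 tested selenoprotein probe sets (points, with bars for the SE from limma, n = 2 per pair), leaving off Selenop at −1.95 ± 2.85. Gpx4 lies lowest among the bright genes at −0.93 and −0.49, and Selenok at 0.71 and Gpx1 at 0.66 lie highest.

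Lists of genes that work with selenoproteins were then set beside the family in the AID-silenced and control clones, with each gene at its brightest probe set. Of 14 other selenoproteins, 13 were measured and 8 tested. Of these 3 were higher in both pairs (2 under median scaling), beside 26.7% of all tested genes. Another 2 were lower in both, beside 27.5%, and 3 were opposite. None passed the limma threshold, and none had an unadjusted p under 0.05. The median differences were −0.02 in pair 1 and 0.06 in pair 2, against 0.00 and −0.01 over all tested genes.

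The remaining thioredoxin reductases went opposite ways to each other. Txnrd3, the form most abundant in testis, was lower in both AID-silenced clones at all 3 of its probe sets, with signals of 366 and 279 in the AID-silenced clones and 686 and 626 in the control clones at the dimmest. Its log2 differences ran from −0.33 to −1.12 over probe sets and pairs, and the groups did not overlap at any of them. At the brightest Txnrd3 probe set the mean difference was −0.46. Txnrd2, the mitochondrial form, was higher in both pairs at all 4 of its probe sets, as in 585 and 583 in the AID-silenced clones against 379 and 394 in the control clones at the second brightest. Its differences ran from 0.06 to 0.83, with a mean of 0.20 at the brightest probe set. Selenon, an ER selenoprotein linked to calcium handling in muscle, had 1200.3 and 965 in the AID-silenced clones and 991 and 713 in the control clones. Selenoi, which makes phosphatidylethanolamine, had 879 and 1321 in the AID-silenced clones and 1503 and 1429 in the control clones, but of its other 2 tested probe sets 1 went opposite ways and 1 was higher in both pairs. None of these differences passed the limma threshold, and unlike Selenop none came from an AID-silenced signal in the background range. An untested Selenoi probe set was in that range on all 4 arrays.

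The 13 tested genes for selenocysteine synthesis and insertion had 3 higher in both pairs, beside 26.7% of all tested genes. They had 5 lower (6 under median scaling), beside 27.5%, and 5 opposite, and 0 past the limma threshold or an unadjusted p under 0.05. Eefsec, the elongation factor that delivers selenocysteine, had signals of 1197 and 1098 in the AID-silenced clones and 1527 and 1433 in the control clones. Pstk, the kinase acting on the serine-loaded selenocysteine transfer RNA, had 647 and 602 in the AID-silenced clones and 786 and 734 in the control clones. Secisbp2, the protein that binds the stem-loop in selenoprotein mRNAs, had 1287 and 1484 in the AID-silenced clones and 1189 and 1158 in the control clones at its brighter probe set. Its dimmer probe set went opposite ways in pair 1 and pair 2. Trnau1ap, a protein associated with the same transfer RNA, had 1068 and 773 against 1399 and 823. The insertion genes named here thus differed by less than 1.5-fold in each pair.

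For uptake of Selenop and selenium recycling 3 of 6 genes were tested. Of these 1 was lower in both pairs (2 under quantile normalisation and under median scaling), beside 27.5% of all tested genes, and 2 opposite. The 1 was Lrp8, the receptor that takes up Selenop in brain and testis, with 679 and 966 in the AID-silenced clones and 724 and 1069 in the control clones, which overlapped, and its other probe sets went opposite ways in the 2 pairs.

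Among genes of the thioredoxin and peroxiredoxin system, 9 were tested. Of these 1 was higher in both pairs, beside 26.7% of all tested genes, 4 were lower, beside 27.5%, and 4 opposite. None passed the limma threshold, and 1, Txnip, had an unadjusted p under 0.05, beside 3.89% of the tested genes. Txnip, which binds and inhibits thioredoxin, had signals of 1403 and 1309 in the AID-silenced clones and 1907 and 2510.2 in the control clones. Its second probe set also separated the groups, with 607 and 694 in the AID-silenced clones and 936 and 1351 in the control clones. Prdx2, a cytosolic peroxiredoxin, had 4231 and 3005 in the AID-silenced clones and 4837 and 4391 in the control clones. Txn1, thioredoxin itself, had 20968 and 25373 in the AID-silenced clones and 21718 and 28602 in the control clones. Txnl1, a thioredoxin-like protein bound to the proteasome, had 6860 and 11081 against 6161 and 8802 at its brightest probe set, and its other tested probe sets went opposite ways in the 2 pairs.

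The glutathione genes had 16 tested members, of which 9 were lower in both AID-silenced clones, 2 higher in both (3 under quantile normalisation) and 5 opposite, beside 27.5% lower and 26.7% higher over all tested genes. Their median differences were −0.28 in pair 1 and −0.19 in pair 2. None passed the limma threshold at an adjusted p of 0.05, and 4 had an unadjusted p under 0.05, beside 3.89% of all tested genes: Gclc, Slc7a11, Chac1 and Mgst2. Gclc, the catalytic subunit of the enzyme that limits glutathione synthesis, had signals of 724 and 1012 in the AID-silenced clones and 1184 and 2445 in the control clones, for log2 differences of −0.70 and −1.26. Its second probe set gave −0.74 and −1.21. Slc7a11, the transporter that imports cystine, had 555 and 427 in the AID-silenced clones and 1035 and 784 in the control clones, and its second probe set separated the groups in the same direction. Chac1, which degrades glutathione, had 4787 and 3703 in the AID-silenced clones and 5534 and 7591 in the control clones. Mgst2, a microsomal glutathione transferase, went the other way, with 174 and 181 in the AID-silenced clones and 63.8 and 113 in the control clones. The members that were lower thus include genes that make glutathione and one that breaks it down.

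Of 12 tested antioxidant enzymes and genes of the Nrf2 response, 8 were lower in both AID-silenced clones, 2 higher in both and 2 opposite, with 7 lower under quantile normalisation. Over all tested genes 27.5% were lower in both and 26.7% higher in both. None passed the limma threshold, and 1, Hmox1, had an unadjusted p under 0.05, beside 3.89% of all tested genes. Hmox1, which degrades heme, had 736 and 759 in the AID-silenced clones and 1167 and 1073 in the control clones. Me1, which makes NADPH in the cytosol, had 2258 and 3216 in the AID-silenced clones and 2877 and 4941 in the control clones. Pgd, another NADPH source, was lower in both pairs at all 4 of its probe sets, with 2435 and 3314 in the AID-silenced clones and 3131 and 4089 in the control clones at the brightest. Cat, the catalase that breaks down hydrogen peroxide, had 986 and 692 against 1127 and 954.

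The 19 tested ER partners of the ER selenoproteins had 6 higher in both pairs, beside 26.7% of all tested genes. They had 3 lower (1 under quantile normalisation and 4 under median scaling), beside 27.5%, and 10 opposite. Past the limma threshold or an unadjusted p under 0.05 there were 0. Uggt1, the partner of Selenof, had signals of 3559 and 3609 in the AID-silenced clones and 3755 and 4650 in the control clones at its brightest probe set. Dnajc10, an ER reductase, had 3547 and 3843 in the AID-silenced clones and 3424 and 3067 in the control clones at its brightest probe set. Its dimmest probe set went opposite ways in the 2 pairs. Pdia4, a disulfide isomerase, had 5033 and 10082 in the AID-silenced clones and 4834 and 8815 in the control clones. Sel1l, part of the ER degradation complex, had 4440 and 3429 against 4304 and 2986 at its brightest probe set, and 3 of its other 4 went opposite ways in the 2 pairs. Their median differences were 0.04 in pair 1 and 0.01 in pair 2.

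**Figure D4:**
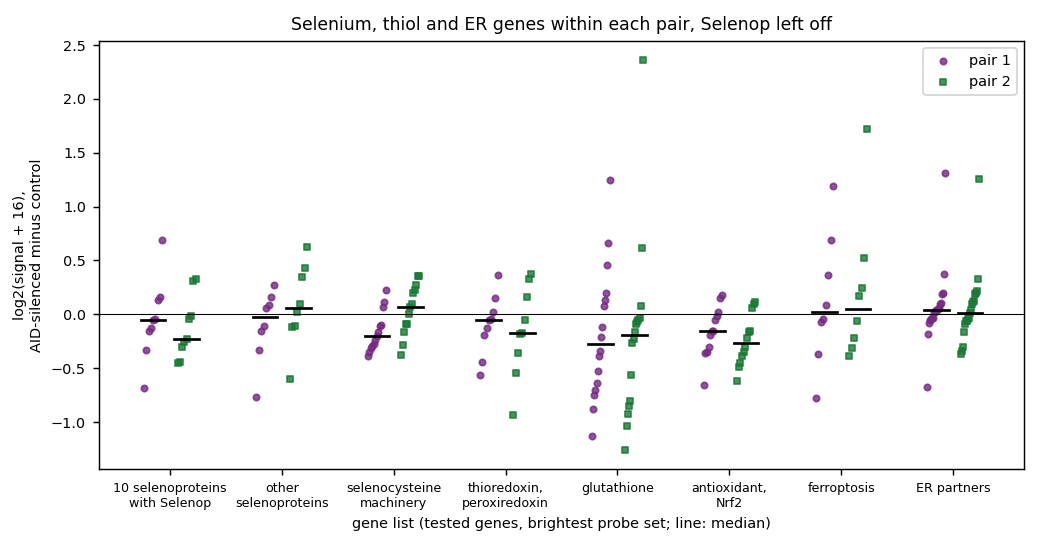
Difference of log2(signal + 16), AID-silenced minus control clone, in pair 1 (circles) and pair 2 (squares) for the tested genes of 8 lists, with lines at the medians and Selenop left off. The glutathione list has its medians at −0.28 and −0.19 and the antioxidant list at −0.16 and −0.26, while the ER partners have theirs at 0.04 and 0.01.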

How the data were processed

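Total RNA of each clone had been hybridised to 1 array. The authors deposited one intensity per probe set, computed with MAS5 per the submitters' processing notes. Every array had a trimmed mean of 500 (2% left out at each end), so no further scaling was applied. Signals were converted to log2(signal + 16). Of the probe sets other than 64 controls, the brighter 0.5 by mean, 22519 in number, entered limma 3.58.1 (statmod 1.5.0, R 4.3.3) with a trended, robust prior, and p-values were adjusted over all of them by Benjamini-Hochberg. Each SE printed is from limma, whose prior draws the spread of a probe set toward that of other probe sets. This fit was first tested on simulated data. Figures were drawn with matplotlib 3.10.9.

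Nothing in the labels separates clonal from technical spread, so p-values measure only the spread between these clones, and the number of arrays limits the precision. The series text presents the clones as pairs, which entered an alternative fit as a block. As to whether they pair, pair 2 minus pair 1 in the AID-silenced clones correlated with the same difference in the control clones (r = 0.306 and rho = 0.336 over 22519 probe sets, as a description).

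Genes in lists were represented by the brightest probe set carrying a single symbol, and all 10 gene identifiers of the family matched RefSeq. All probe sets of the family were named. From each functional list up to 4 genes were named, those with the largest mean difference of one sign in both pairs. The family and lists were chosen with earlier results of these data known. The level of the silenced gene is not reported here. Alternatives were quantile and median scaling, pseudocounts of 1 and 64, no filter and a stricter one at 0.25, a plain prior, blocks, and leaving out each array.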

Additional observations from a re-analysis of the deposited data

How the results depend on the processing

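The number of selenoprotein probe sets past the threshold between AID-silenced and control clones was 0 under each scaling, pseudocount, filter and prior tried and with the pair number as a replicate block, which changed no call of the family. It was 0 to 1 when 1 array was left out. The 1 was Selenop, without the control clone of pair 1 or without that of pair 2, where 0.648% and 0.231% of all tested probe sets passed, and nothing is read from these calls. The control group then held a single array, assumed to vary like the AID-silenced group, whose 2 Selenop signals, both in the background range, gave all the residual spread of the gene. Between pair 2 and pair 1 the number stayed 0 under every alternative tried. The count at least 2-fold apart in both pairs was 1 under each scaling and pseudocount and without a filter, and 0 with the stricter filter, which left 15 probe sets and not Selenop. The Selenop difference was −7.39 at a pseudocount of 1 and −3.77 at 64, and it lay between −7.40 and −3.37 when 1 array was left out. The replicate block leaves the difference of each probe set as it is, so it could not change a sign. Nor could a pseudocount where both pairs went the same way, or leaving out 1 array where the groups did not overlap. For Selenop, Selenom, the bright probe set of Selenof and the dimmer one of Selenow, only scaling could have changed the sign. Their kept signs are therefore no support. Of the 21 probe sets, 7 kept the sign of their difference in all 9 alternatives, counting the block, and 14 changed it in at least 1. These 7 were the probe set of Selenop, that of Selenom, the bright one of Selenof, the dimmer one of Selenow, the brighter one of Selenok, the dimmest of Txnrd1 and the dimmest of Selenot, which was in the background range. Signals at or under 27.2 to 41.9 cannot be told from background, which limits Selenop in the AID-silenced clones.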

Other observations

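In the list of ferroptosis genes around Gpx4, 8 genes were tested, with 3 higher in both AID-silenced clones, beside 26.7% of all tested genes, 3 lower in both, beside 27.5%, and 2 opposite, and 0 past the limma threshold or an unadjusted p under 0.05. Gch1, which makes the antioxidant tetrahydrobiopterin, had signals of 1555 and 433 in the AID-silenced clones, against 956 and 120 in the control clones. Its second probe set was also higher in both pairs, by 0.49 and 1.22 on the log2 scale. At both Gch1 probe sets the groups overlapped, and the pairs lay farther apart than the groups. Vkorc1, a reductase of vitamin K, had 4004 and 3017 in the AID-silenced clones and 1748 and 2678 in the control clones. Dhodh, a mitochondrial enzyme of pyrimidine synthesis, had 1052 and 902 in the AID-silenced clones and 1818 and 1127 in the control clones. Aifm2, which reduces coenzyme Q, had 310.2 and 246 in the AID-silenced clones and 237 and 166 in the control clones at its brightest probe set. Its second brightest probe set was lower in both pairs, with differences of −0.15 and −0.06, and its dimmest went opposite ways in pair 1 and pair 2.

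All 3 tested genes of the integrated stress list were lower in both AID-silenced clones, beside 27.5% of all tested genes, and 0 passed the limma threshold or an unadjusted p under 0.05. Trib3, a pseudokinase induced by Atf4, had 2454 and 787 in the AID-silenced clones and 4976 and 1169 in the control clones. Ddit3, a stress transcription factor, had 1746 and 524 in the AID-silenced clones and 2614 and 761 in the control clones at its brighter probe set. For both genes the pairs thus lay farther apart than the groups. The dimmer Ddit3 probe set, also tested, went opposite ways, with differences of −0.08 in pair 1 and 0.01 in pair 2. Atf4 itself had 15263 and 13908 in the AID-silenced clones and 18173 and 15472 in the control clones, and its second tested probe set went opposite ways in the 2 pairs.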
